A study of Oryza sativa Japonica Group with 9 samples.

Results

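Transcripts of 2 regulator families were followed in rice egg cells before and shortly after fertilization: basic leucine zipper (bZIP) transcription factors and type 2C protein phosphatases (PP2C). A gene belonged to them if its symbol or a synonym in the array's annotation was bZIP or PP2C followed by a number, with or without the prefix Os, and 79 genes met this. Of these, 73 had a probe set that reads them alone, 18 bZIP genes and 55 PP2C genes, among 17905 genes so measured on the array. OsbZIP19, OsPP2C41, OsPP2C49, OsPP2C50, OsPP2C65 and OsPP2C77 had no such probe set. The 73 genes are read by 91 probe sets; the brightest by mean over all arrays stood for each gene, and the others were used as a check in the 13 genes that have several. After a filter on dim probe sets 70 genes remained, 15 bZIP and all 55 PP2C genes. OsbZIP11, OsbZIP70 and OsbZIP83 were below it.

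The 9 arrays hold egg cells, fertilized egg cells and zygotes, with 3 arrays of each, all from wild type plants of the japonica rice cultivar Katy. Unfertilized egg cells came from florets at anthesis, fertilized egg cells from about 1 hour after pollination (1 to 1.5 hours in the series text), and zygotes from about 3 hours (2.5 to 3 hours). Each sample pooled about 100 cells freed from excised ovules without enzymes, and its RNA was amplified over 2 rounds before labelling. The titles call the 3 arrays of a stage biological replicates and the protocol also calls them technical, so p-values measure the spread between these arrays. One descriptive entry of the labels speaks of seedlings, pollen and sperm cells instead; the titles, stage entries and protocols contradict it, and the groups follow them.

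In plants the hormone abscisic acid (ABA) binds PYL receptors, which then block clade A PP2C phosphatases. These phosphatases otherwise hold SnRK2 kinases inactive, and the released kinases phosphorylate bZIP factors of the AREB/ABF type, which switch on dehydrin and other LEA genes that protect cells during drying. The bZIP family also holds TGA factors, partners of the defence regulator NPR1, and membrane-bound or unconventionally spliced factors that act when unfolded protein builds up in the endoplasmic reticulum (ER). Most PP2C phosphatases lie outside clade A.

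Zygote replicate 2 stood apart from the other arrays. Its median correlation with them, over the log2 signals of all probe sets kept, was 0.613, against 0.845 to 0.920 for the other 8. It was the lowest of the 9 arrays in 27 of the 70 members, against 29.6% of all genes. These were 4 bZIP genes (26.7% of those kept) and 23 PP2C genes (41.8%). The median signal over all rice probe sets was 36.5 to 50.9 in the egg arrays and 47.3 to 95.4 in the fertilized egg arrays. It was 54.0, 218 and 101 in zygote replicates 1, 2 and 3. Signals were compared as deposited, without further normalization, except in a fit with quantile normalization. Summed signals of 4 photosynthetic marker genes were 12062 to 20867 in the egg arrays, 14236 to 18814 in the fertilized egg arrays and 2193 to 13337 in the zygote arrays. Those of 4 anther, pollen and sperm markers were 4349 to 8501, 7089.7 to 9479 and 4689 to 5457 in the same order, and those of 9 endosperm markers 8959.9 to 17046, 13191 to 38767 and 9148 to 22572. No egg cell gene of the EC1 type or embryo gene of the BBM or LEC type was matched on the array, so the egg and embryo list rested on 7 WOX genes, whose sum was 306 to 518, 299 to 573 and 503 to 1384 in that order. By stage mean, CAB2R gave most to the photosynthetic sum, MTR1 to the second and GBSS-I to the endosperm sum. Single genes can differ from their sum, as did OsrbcS, with means of 142, 275 and 211. The filter on dim probe sets kept 3 of the 9 endosperm and 2 of the 7 WOX genes. Poly-A control RNA, added before amplification, relative to hybridization control RNA, added after it, was at 0.0541 to 0.0936 in the egg arrays, 0.246 to 0.641 in the fertilized egg arrays and 0.260 to 1.20 in the zygote arrays. For either later stage against egg cells this gave an exact two-sided permutation p of 0.1, the smallest that 3 arrays against 3 allow. The part of these differences in the results below, rises of dim genes included, was not tested. Some results are also given from fits without an array, with quantile normalization or with the control ratio as a covariate. Every egg array had a lower control ratio than every later array. The covariate fit therefore cannot tell the control difference apart from a change between egg cells and a later stage. A lower signal may also mean less of the transcript per cell or a smaller share of cells that hold it, and these cannot be told apart in pooled cells.

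No bZIP or PP2C gene passed the threshold of 0.05 for limma's adjusted p (Benjamini-Hochberg over all 28597 probe sets kept) in any of the 3 comparisons or in the F test over the stages. The same test called 0.0655% of all genes for zygote minus egg, 0.0196% for fertilized egg minus egg, 0% for zygote minus fertilized egg and 0.0786% in the F test. At an unadjusted p under 0.05, there were 15 members for zygote minus egg (3 bZIP and 12 PP2C), or 21.4% of the 70, against 15.2% of all genes. There were 9 (2 and 7) for fertilized egg minus egg, or 12.9% against 10.2%, and 13 (2 and 11) for zygote minus fertilized egg, or 18.6% against 10.9%. The F test gave 14 (3 and 11), or 20% against 13.9%. The members' shares were the higher ones in all 4; they were not tested against the background.

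When arrays that deviate more were given less weight (limma's array quality weights, from 0.156 for zygote replicate 2 to 3.46 for egg replicate 3), 10 members passed the threshold in at least 1 comparison. They were 8 for zygote minus egg, where 6.65% of all genes passed, 3 for fertilized egg minus egg (5.34%), 1 for zygote minus fertilized egg (0.0458%) and 9 in the F test (9.45%). These calls depend on how the weights are estimated: limma's gene-by-gene estimator gave 2, 3, 0 and 7 members (1.62%, 4.93%, 0% and 5.6% of all genes), and weights estimated without the stages gave 1, 2, 0 and 2 (0.105%, 2.39%, 0% and 1.38%). With the control ratio as a covariate in place of weights 3, 2, 1 and 4 members passed (3.23%, 3.56%, 1.05% and 3.21% of all genes), partly other ones, and other definitions of that ratio gave from 0 to 4. Values without weights are given first for each gene, and a gene is said to pass only with the fit named.

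**Figure D1:**
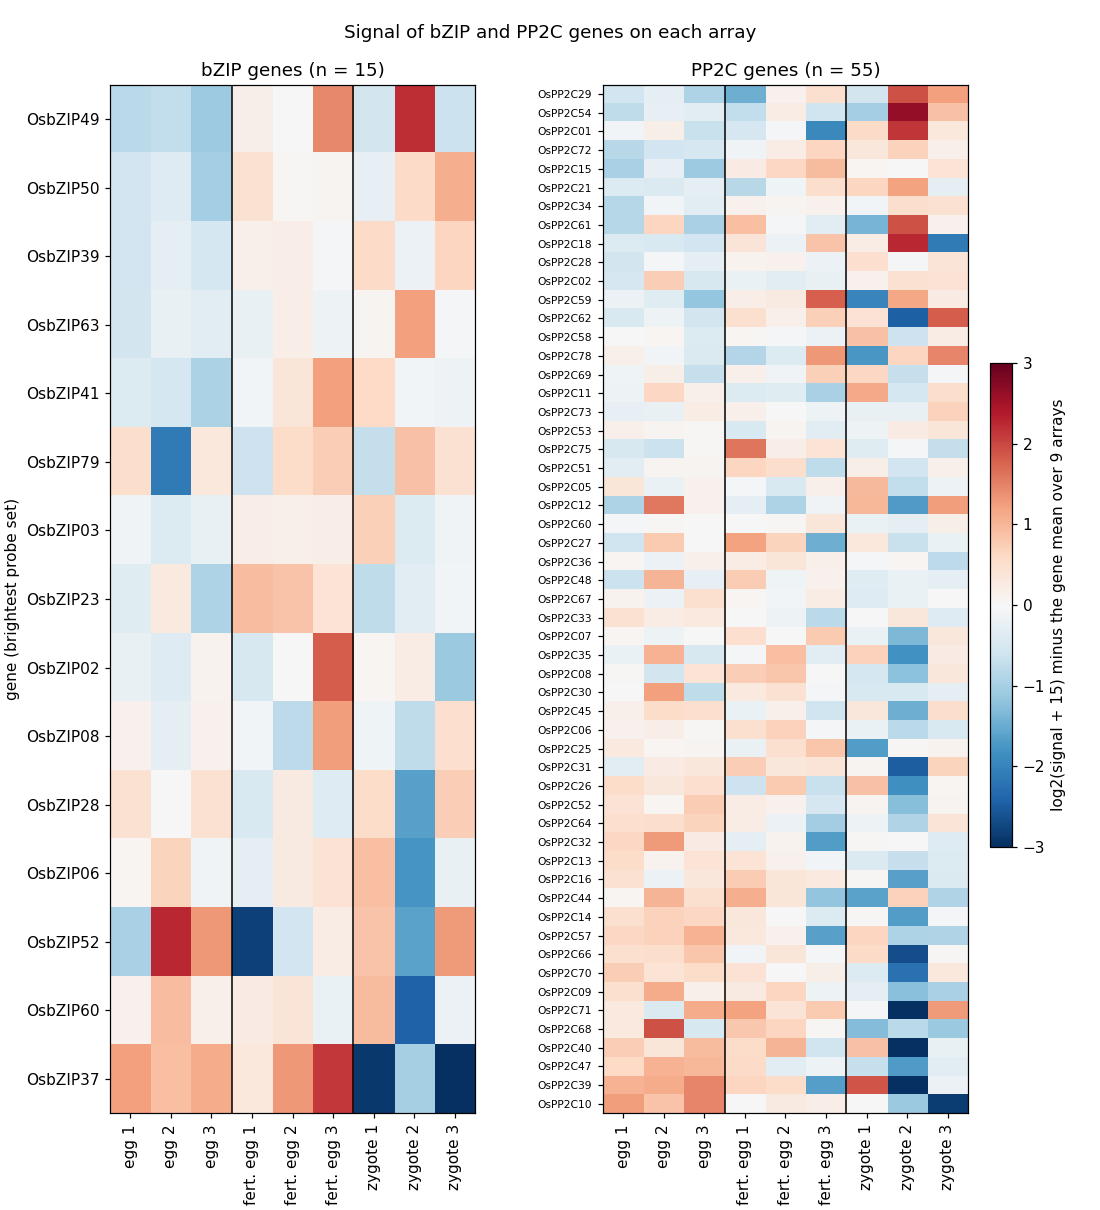
Signals of the 15 bZIP genes and 55 PP2C genes kept, 1 row per gene and 1 column per array, coloured by log2(signal + 15) minus the gene's mean over the 9 arrays. Rows run from the highest to the lowest zygote minus egg difference; zygote replicate 2 holds the lowest value in 27 rows.

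Among the bZIP genes, OsbZIP37, a TGA-type gene also named TGAL6, differed most. Its signal was 462, 368 and 426 in the egg arrays, 239, 487 and 877 in the fertilized egg arrays and 12.3, 87.8 and 8.24 in the zygote arrays. The 3 zygote arrays lay below the other 6, 2 of them at or under the offset of 15 that was added to every signal, which is the 25th percentile of all values. The change was -3.42 ± 0.67 on the log2(signal + 15) scale for zygote minus egg (SE; limma, adjusted p = 0.115) and -3.59 ± 0.67 for zygote minus fertilized egg (adjusted p = 0.184), while fertilized egg minus egg gave 0.17 ± 0.67. It passed with array weights in both comparisons that involve zygotes (limma, adjusted p = 0.00271 and 0.0379), and for zygote minus egg also without zygote replicate 2 (-4.10, adjusted p = 0.0216) and without zygote replicate 1 (-3.14, adjusted p = 0.0454). By the gene-by-gene estimator OsbZIP37 passed for zygote minus egg and not for zygote minus fertilized egg. The gene is read by a probe set of the type that can match several transcripts, and cross-reading by related TGA genes was not tested.

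Of the 8 TGA-type genes kept, 5 had a zygote mean above the egg mean on the log2 scale. The median change of the 8 was 0.47, against -0.07 over all genes. For fertilized egg minus egg 7 of 8 were above 0, with a median of 0.37, against 0.43 over the 15 bZIP genes kept and 0.01 over all genes. For zygote minus fertilized egg 2 were above 0 and 6 below, with a median of -0.16, against -0.06 over all genes. OsbZIP41 (TGAL5) had signals of 275, 252 and 184 in the egg arrays, 349, 482 and 894 in the fertilized egg arrays and 568, 349 and 334 in the zygote arrays, without overlap between egg cells and either later stage. OsbZIP49 (TGAL8) had 73.7, 79 and 57.8 in the egg arrays, 161, 140.2 and 406 in the fertilized egg arrays and 91.6, 706 and 84.3 in the zygote arrays, again without overlap with egg cells. Neither passed the test: for fertilized egg minus egg OsbZIP41 gave 1.14 ± 0.47 (limma, adjusted p = 0.519) and OsbZIP49 1.41 ± 0.77 (adjusted p = 0.653). OsbZIP63 (TGA2.1) and OsbZIP03 (TGA2.3), both known as partners of rice NPR1 homologues, gave 0.79 ± 0.38 and 0.32 ± 0.33 for zygote minus egg. The brightest array of OsbZIP63 was zygote replicate 2, at 2794, against 806 to 1364 in the other 8. This array, whose median signal was the highest, was also the brightest for OsbZIP49, at 706.

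OsbZIP23, an ABA-activated factor also named AREB1 and ABF2, was highest in fertilized eggs. Its signal was 1878, 2936 and 1266 in the egg arrays, 4575, 4359 and 3224 in the fertilized egg arrays and 1407, 1904 and 2287 in the zygote arrays. All 3 fertilized egg arrays lay above the other 6, as they did for 2.83% of all genes. The change was 1.06 ± 0.36 for fertilized egg minus egg (limma, adjusted p = 0.436) and -1.12 ± 0.36 for zygote minus fertilized egg (adjusted p = 0.355), and zygotes and egg cells differed by -0.06 ± 0.36. With array weights the first of these passed (1.35 ± 0.27, limma, adjusted p = 0.0127) and the second did not (adjusted p = 0.247). It was the only gene of the ABA-linked bZIP list to carry a bZIP number here. TRAB1, a related ABA-regulated bZIP gene listed under another name, had signals of 4374, 4701 and 3844 in fertilized eggs, against 4698, 4778 and 5542 in egg cells, and did not pass in any comparison.

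The ER stress genes OsbZIP39 and OsbZIP50 were both lowest in egg cells. OsbZIP50, also named OsbZIP74, whose mRNA is spliced by the ER sensor IRE1, had 438, 503 and 318 in the egg arrays, 909, 679 and 701 in the fertilized egg arrays and 556, 989 and 1413 in the zygote arrays. OsbZIP39, which encodes a membrane-bound factor, had 1316, 1641 and 1369 in the egg arrays, 2199, 2262 and 1901 in the fertilized egg arrays and 2951, 1749.7 and 3088 in the zygote arrays. In both genes the 3 egg arrays lay below the other 6, as in 4.23% of all genes. For zygote minus egg the changes were 1.13 ± 0.41 and 0.80 ± 0.32 (limma, adjusted p = 0.264 and 0.269). Both passed with limma's default array weights only (adjusted p = 0.0307 and 0.03), and not by the other estimators of the weights. OsbZIP60, the third gene of this list and also membrane-bound, had 1049, 87.5 and 467 in zygotes, against 583, 1026 and 596 in egg cells, and its groups overlapped (-0.95 ± 0.68, adjusted p = 0.468). Array signals do not show whether the OsbZIP50 transcript was spliced, and OsbZIP39 is read by a probe set of the type prone to cross-hybridization.

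Over the 15 bZIP genes kept, the median change for fertilized egg minus egg was 0.43, against 0.01 over all genes, with 11 above 0 and 4 below. For zygote minus fertilized egg it was -0.20, against -0.06, and for zygote minus egg -0.06, against -0.07. The fertilized egg arrays lay above the egg arrays without overlap in 6 bZIP genes (OsbZIP03, 23, 39, 41, 49 and 50) and below them in 0, where 14% of all genes lay above and 12.3% below. The zygote arrays lay above the egg arrays in 5 (OsbZIP39, 41, 49, 50 and 63) and below in OsbZIP37, where 10.7% and 10.4% of all genes did. The zygote arrays lay above the fertilized egg arrays in 0 bZIP genes and below in OsbZIP23 and OsbZIP37, against 5.64% and 8.02%.

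**Figure D2:**
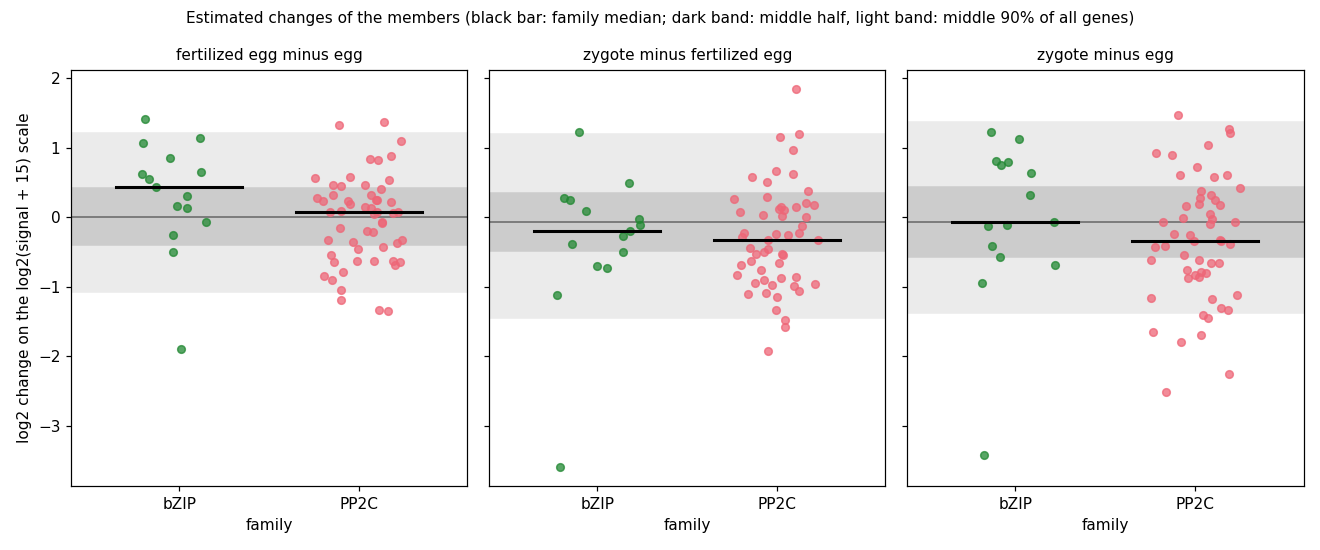
Estimated log2 changes of each member on the log2(signal + 15) scale, 1 panel per comparison, with the bZIP and PP2C genes side by side and the family median as a black bar. The grey bands hold the middle part of all 15270 genes; OsbZIP37 is the lowest point in both panels that involve zygotes, at -3.59 and -3.42.

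Clade A, the branch of the PP2C family that ABA receptors block, was represented by 7 of the 10 genes listed: OsPP2C06 (ABIL1), OsPP2C08, OsPP2C09, OsPP2C30, OsPP2C51, OsPP2C53 (ABIL2) and OsPP2C68 (SIPP2C1). For zygote minus fertilized egg, 6 of the 7 were below 0 with a median of -0.86, against -0.06 over all genes. For zygote minus egg, 6 were also below 0, with a median of -0.54, against -0.07. For fertilized egg minus egg, 4 were above 0 and the median was 0.09. The zygote comparisons share the zygote arrays and are not independent of each other.

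OsPP2C09 had signals of 3321, 5138 and 2622 in the egg arrays, 2847, 3688 and 2148 in the fertilized egg arrays and 1963, 987 and 1202 in the zygote arrays. OsPP2C68 had 1637, 5049 and 945 in the egg arrays, 2342, 2092 and 1362 in the fertilized egg arrays and 531, 755 and 604 in the zygote arrays. OsPP2C06 had 3914, 4167 and 3694 in the egg arrays, 5042, 5836 and 3439 in the fertilized egg arrays and 3128, 2051 and 2618 in the zygote arrays. In these 3 genes the zygote arrays lay below the other 6, which 2.69% of all genes showed. For zygote minus egg OsPP2C09 gave -1.41 ± 0.37 (limma, adjusted p = 0.192), OsPP2C68 -1.65 ± 0.51 (adjusted p = 0.229) and OsPP2C06 -0.61 ± 0.30 (adjusted p = 0.324). OsPP2C09 passed with array weights (limma, adjusted p = 0.0378), with the control ratio as a covariate (-2.70, adjusted p = 0.0289) and without zygote replicate 1 (-1.69, adjusted p = 0.0439). It did not pass by the gene-by-gene estimator of the weights (limma, adjusted p = 0.0919). The highest egg value of OsPP2C68 was that of egg replicate 2, at 5049; without this array the change was -0.98 (adjusted p = 0.386).

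The other clade A genes overlapped between zygotes and egg cells. OsPP2C08 had 3623, 2402 and 4684 in the egg arrays, 5884, 6322 and 3504 in the fertilized egg arrays and 2464, 1499.6 and 4486 in the zygote arrays. OsPP2C30 had 3559, 8445 and 2134 in the egg arrays, 4439.9, 4962 and 3523 in the fertilized egg arrays and 2613, 2625 and 3011 in the zygote arrays, so that zygotes lay below fertilized eggs and within the wide egg range. OsPP2C53 averaged 749 ± 31.1 in the egg arrays, 601 ± 124 in the fertilized egg arrays and 786 ± 142 in the zygote arrays (SD, n = 3), and OsPP2C51 had 87.5, 121 and 121 in the egg arrays, 187, 171 and 60.9 in the fertilized egg arrays and 129, 71.5 and 127 in the zygote arrays. OsPP2C53 was the gene above 0 in both zygote comparisons (0.38 ± 0.35 against fertilized eggs).

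**Figure D3:**
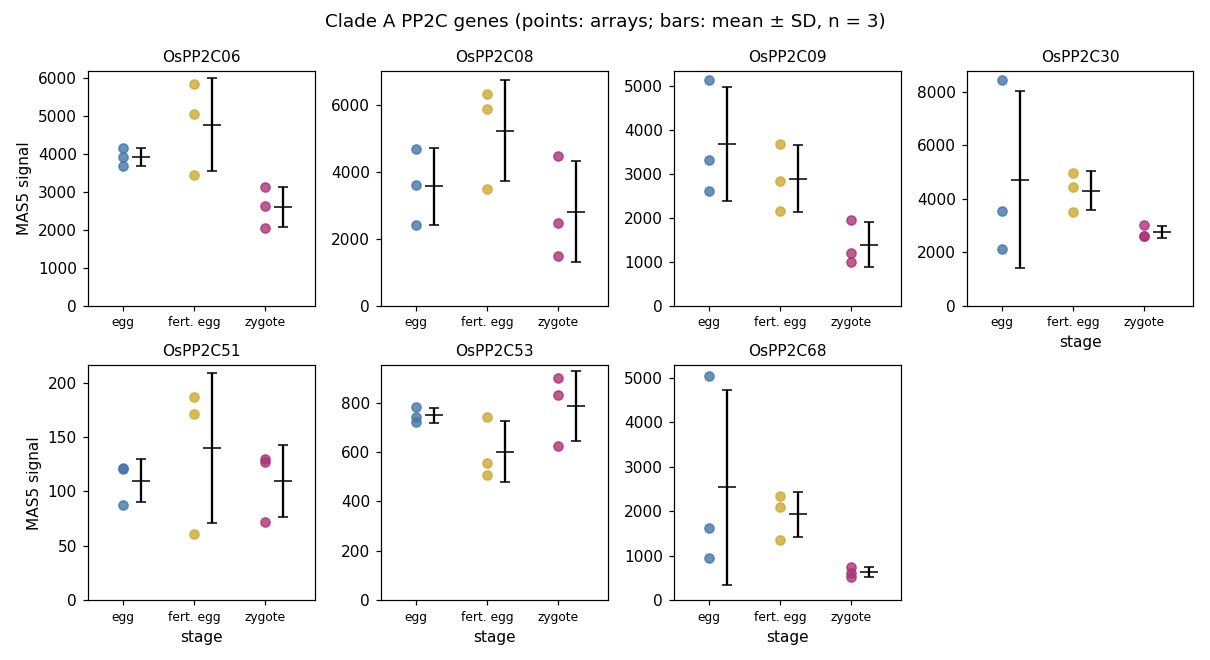
MAS5 signal of the 7 clade A PP2C genes by stage, with 1 point per array and the mean and SD of 3 arrays as bars; each panel has its own scale, since signals of different probe sets are not comparable. Zygote arrays lie below all others for OsPP2C06, OsPP2C09 and OsPP2C68, and the stages overlap for OsPP2C08, OsPP2C51 and OsPP2C53.

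Outside clade A, the largest differences ran in both directions. OsPP2C10 had 441, 329 and 510.4 in the egg arrays, 174, 214 and 204 in the fertilized egg arrays and 174, 73.7 and 11.7 in the zygote arrays, so that egg arrays lay above and zygote arrays below all others (zygote replicate 1, at 173.9, just below fertilized egg replicate 1, at 174.1). It gave -2.51 ± 0.67 for zygote minus egg (limma, adjusted p = 0.2), and passed with array weights (adjusted p = 0.00775) and without zygote replicate 1 (-3.16, adjusted p = 0.0311). OsPP2C47 had 5198, 7146 and 6922 in the egg arrays, 5130.0, 2769 and 3120.1 in the fertilized egg arrays and 2115, 1049 and 2702 in the zygote arrays, and zygotes lay below all others. For zygote minus egg it gave -1.80 ± 0.38 (limma, adjusted p = 0.135), passing with array weights (adjusted p = 0.0256) and without zygote replicate 1 (-1.91, adjusted p = 0.0446). By the gene-by-gene estimator OsPP2C10 passed for this comparison and OsPP2C47 did not. The dimmer probe set of OsPP2C47 gave -2.87 ± 0.83 for the same comparison, in the same direction. Its zygote signals were 15.1, 14.7 and 263, the lower ones near the offset of 15. The brighter set is of the type that can match several transcripts, and cross-reading was not tested. Besides OsPP2C10 and OsPP2C47, the egg arrays lay above the other 6 in OsPP2C14, OsPP2C32 and OsPP2C64, 5 of the 55 PP2C genes and 0 of the 15 bZIP genes, against 4.37% of all genes.

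OsPP2C15 and OsPP2C72 were the PP2C genes with all 3 egg arrays below the other 6. They were 3.64% of the 55 PP2C genes, against 4.23% of all genes. OsPP2C15 had 2038, 3364 and 1884 in the egg arrays, 4738, 6215 and 7712 in the fertilized egg arrays and 4197, 4046 and 5304 in the zygote arrays. OsPP2C72 had 2130.1, 2561 and 2709 in the egg arrays, 3535, 4438 and 6003 in the fertilized egg arrays and 4861, 6185 and 4244 in the zygote arrays. For fertilized egg minus egg OsPP2C15 gave 1.37 ± 0.31 (limma, adjusted p = 0.21) and OsPP2C72 0.89 ± 0.30 (adjusted p = 0.435). Both passed with array weights (limma, adjusted p = 0.0024 and 0.0341), by the gene-by-gene estimator too (adjusted p = 0.00273 and 0.0364). With weights estimated without the stages OsPP2C15 passed and OsPP2C72 did not. Neither passed with the control ratio as a covariate. Over all alternative fits the OsPP2C15 change ranged from -0.061 to 1.63. For zygote minus egg OsPP2C15 passed with array weights (limma, adjusted p = 0.0256) and not by the gene-by-gene estimator (adjusted p = 0.0657). OsPP2C72 did not pass with array weights (limma, adjusted p = 0.0564).

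OsPP2C57, too, passed in some fits and not in others. It had 5778, 5987 and 7727 in the egg arrays, 4643, 4049 and 1201 in the fertilized egg arrays and 5879.7, 1958 and 1975 in the zygote arrays, and zygote replicate 1 overlapped the egg range. For zygote minus egg it gave -1.18 ± 0.52 (limma, adjusted p = 0.294); it passed with array weights (adjusted p = 0.0469) but not by the gene-by-gene estimator, and with the control ratio as a covariate the change was -3.45 (adjusted p = 0.0216). OsPP2C78 passed with that covariate alone (without it, 0.25 ± 0.72), and its stages overlapped, with 328, 1774 and 3144 in zygotes, against 1251, 1072 and 828 in egg cells.

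**Figure D4:**
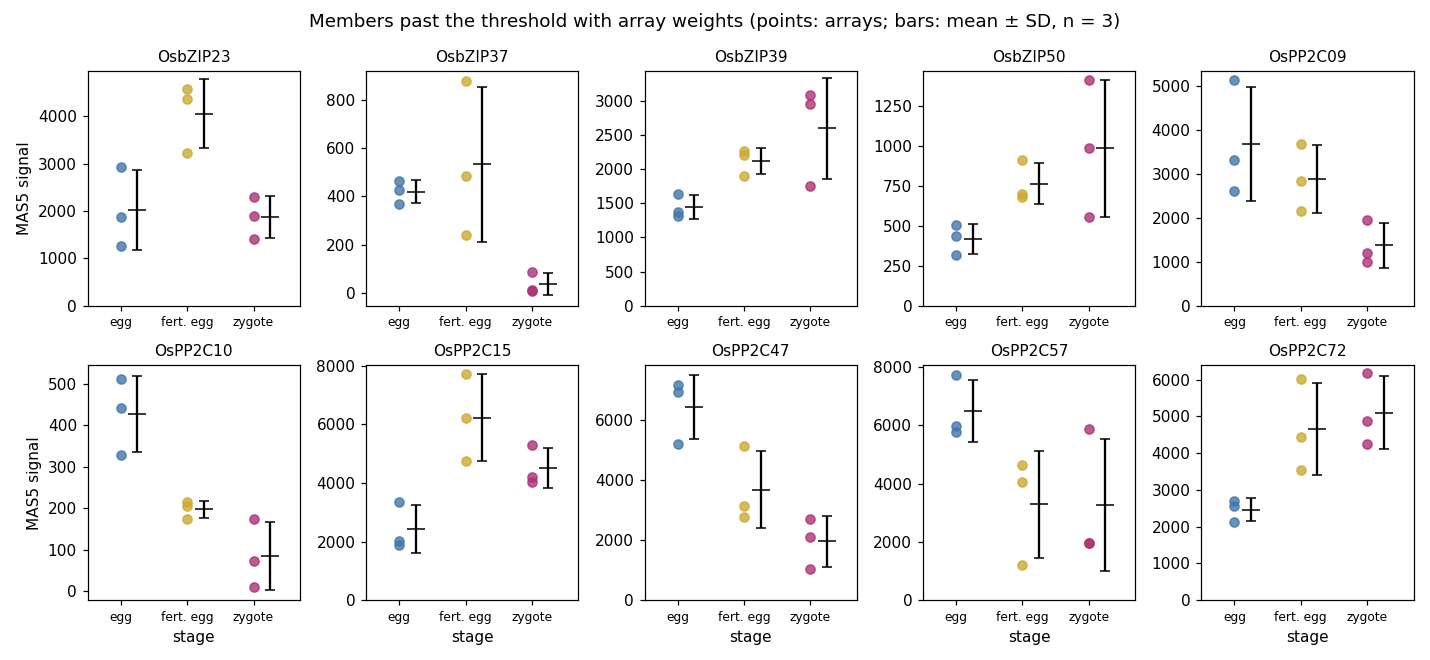
MAS5 signal by stage of the 10 members past the threshold with array weights in at least 1 comparison or the F test, with 1 point per array and the mean and SD of 3 arrays as bars. OsbZIP37 and OsPP2C10 are lowest in zygotes, OsbZIP23 is highest in fertilized eggs, and OsbZIP39, OsbZIP50, OsPP2C15 and OsPP2C72 are lowest in egg cells.

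The other PP2C genes described here did not pass in the comparison given for them, without weights or with any of the array weights. OsPP2C75 had 318, 284 and 465 in the egg arrays, 1392, 518 and 602 in the fertilized egg arrays and 349, 438 and 267 in the zygote arrays, with fertilized eggs above all others (1.09 ± 0.46 for fertilized egg minus egg, limma, adjusted p = 0.537). Its 3 probe sets ranged from 0.095 to 1.09 for that comparison. In neither of the other sets did the fertilized egg arrays lie above all others. One of these had 623, 343 and 496 in fertilized eggs, against 462, 272 and 683 in egg cells. OsPP2C32 had 2341, 3075 and 885 in fertilized eggs, against 4410.3, 6969 and 3349.7 in egg cells (-1.33 ± 0.44, adjusted p = 0.429). OsPP2C01 was the only member with all zygote arrays above the other 6 (2.64% of all genes), at 149.6, 471 and 122 in zygotes, against 62.9, 90.1 and 13.6 in fertilized eggs (1.85 ± 0.75, adjusted p = 0.43). Its highest value, 471, was in zygote replicate 2, the array with the highest median signal. OsPP2C13 (DCW11), a gene first known from cytoplasmic male sterility in rice, had 1761, 1464 and 1792 in zygotes, against 3477, 2563 and 3137 in egg cells, and zygotes lay below all others (-0.86 ± 0.29, adjusted p = 0.25). OsPP2C34 (BIPP2C2), named for its induction by a defence-priming compound, gave 0.72 ± 0.31 for zygote minus egg (adjusted p = 0.287), and OsPP2C35 (XB15), which dephosphorylates the immune receptor XA21, overlapped between these stages and gave -0.41 ± 0.64 (adjusted p = 0.752). Among the brightest probe sets of the family, OsPP2C14 had 6463, 7524 and 7118 in the egg arrays, 5841, 4576 and 3492 in the fertilized egg arrays and 4754, 1447 and 4480.4 in the zygote arrays. OsPP2C16 had 7639, 4961 and 7057 in the egg arrays, 9518, 7170.3 and 6884 in the fertilized egg arrays and 5747, 1804 and 4107 in the zygote arrays, and OsPP2C52 had 5845, 4499 and 7269 in the egg arrays, 5034, 4731 and 3059 in the fertilized egg arrays and 4593, 1762 and 4535 in the zygote arrays. Zygote replicate 2 was the lowest array of all 3 genes, which gave -1.16 ± 0.41, -0.88 ± 0.39 and -0.79 ± 0.39 for zygote minus egg.

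OsPP2C59 had 261, 225 and 125 in the egg arrays, 344, 362 and 1061 in the fertilized egg arrays and 63.7, 681 and 352 in the zygote arrays, and OsPP2C39 had 1776, 1859 and 2377 in the egg arrays, 1360.0, 1268 and 264 in the fertilized egg arrays and 3226, 14.8 and 756 in the zygote arrays. The fertilized egg arrays lay above the egg arrays in OsPP2C59 and below them in OsPP2C39 without overlap, and the range of the zygote arrays overlapped both. For fertilized egg minus egg OsPP2C59 gave 1.32 ± 0.74 (limma, adjusted p = 0.663) and OsPP2C39 -1.34 ± 1.24 (adjusted p = 0.813); OsPP2C59 passed with 1 definition of the control ratio as a covariate (adjusted p = 0.0397). The values for zygote minus egg were 0.37 ± 0.74 and -2.25 ± 1.24. OsPP2C02 had 748, 945 and 929 in zygotes, against 597, 552 and 582 in fertilized eggs, without overlap (0.58 ± 0.40).

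Over the 55 PP2C genes the median change was -0.33 for zygote minus egg, against -0.07 over all genes, with 19 above 0 and 36 below. It was -0.32 for zygote minus fertilized egg, against -0.06, with 21 above and 34 below, and 0.07 for fertilized egg minus egg, against 0.01, with 30 above and 25 below. The zygote arrays lay below the egg arrays without overlap in 10 PP2C genes (18.2% of the 55, against 10.4% of all genes) and above them in 4 (7.27%, against 10.7%). They lay below the fertilized egg arrays in 11 (20%, against 8.02%) and above them in 2 (3.64%, against 5.64%). The fertilized egg arrays lay above the egg arrays in 9 (16.4%, against 14%) and below them in 11 (20%, against 12.3%). These shares were not tested against the background. Zygote replicate 2 was the lowest of the 9 arrays in 41.8% of the PP2C genes, against 29.6% of all genes. Its part in these medians and shares was not tested. The median SD between replicates over the PP2C genes was 0.29, 0.41 and 0.79 (log2) in egg cells, fertilized eggs and zygotes, against 0.26, 0.40 and 0.73 over the bZIP genes and 0.29, 0.42 and 0.67 over all genes.

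OsPP2C45 gave different answers from its 2 probe sets. The brighter set had signals of 3579.7, 4724 and 4536 in the egg arrays, 2778, 3553 and 2117 in the fertilized egg arrays and 4019, 1157 and 4617 in the zygote arrays. The dimmer set had 86.7, 761 and 515 in the egg arrays, 4.01, 60.9 and 37.5 in the fertilized egg arrays and 1993, 526 and 739 in the zygote arrays. For zygote minus fertilized egg the dimmer set gave 4.47 ± 0.81 (limma, adjusted p = 0.179) with the zygote arrays all above, and the brighter set 0.01 ± 0.45 with overlapping groups. For fertilized egg minus egg both were below 0, at -3.04 ± 0.81 for the dimmer and -0.62 ± 0.45 for the brighter set, and for zygote minus egg they differed in sign (1.43 ± 0.81 and -0.61 ± 0.45). In neither fit without a covariate did either set pass in a pairwise comparison; the dimmer set passed for zygote minus fertilized egg with the control ratio as a covariate (4.45, adjusted p = 0.0224) and in the F test with array weights (adjusted p = 0.0277). Which transcripts each set reads was not tested, since the probe sequences are not used here.

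Several other PP2C genes had probe sets that did not go together. Of the 8 genes with at least 2 probe sets kept, the sets differed in sign in 5 for zygote minus egg, in 4 for fertilized egg minus egg and in 3 for zygote minus fertilized egg. OsPP2C73 is read by 4 sets. The brightest had 4528, 4536 and 8521 in zygotes, against 4469, 4513 and 6187 in egg cells (0.16 ± 0.31), and its 4 sets ranged from -0.10 to 1.56 for that comparison. OsPP2C39 had sets at -2.25 and 0.62, and OsPP2C71 sets at -1.45 and 0.74.

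**Figure D5:**
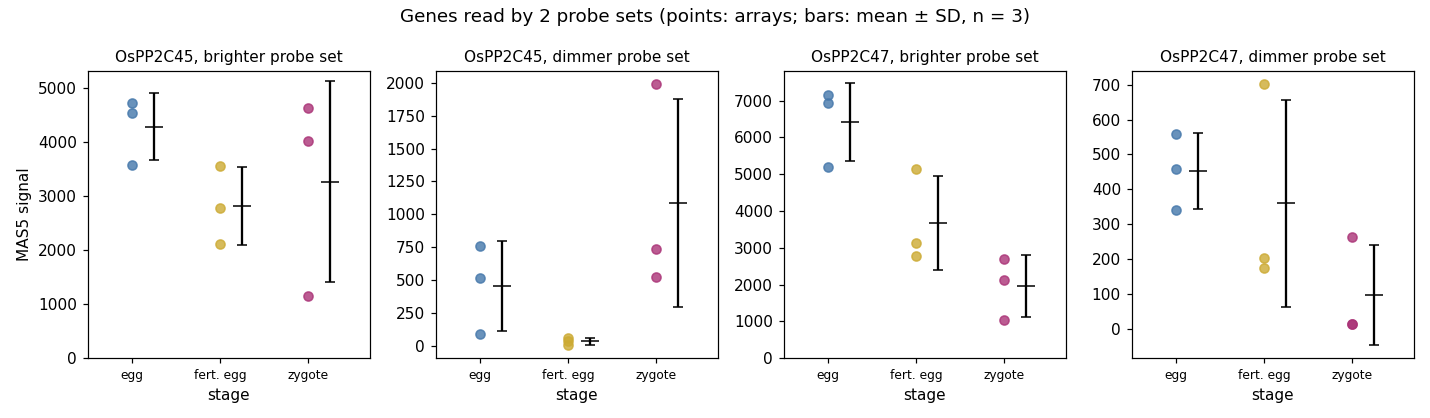
MAS5 signal by stage for both probe sets of OsPP2C45 and of OsPP2C47, with 1 point per array and the mean and SD of 3 arrays as bars. The dimmer OsPP2C45 set is lowest in fertilized eggs, all 3 arrays below the egg and zygote arrays. The brighter set's fertilized egg arrays lie below its egg arrays and overlap its zygote arrays. Both OsPP2C47 sets have their lowest mean in zygotes, and the zygote and fertilized egg arrays of the dimmer OsPP2C47 set overlap.

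Among the other genes of the ABA pathway, 2 dehydrins, which protect drying cells, were called. RAB21 had 9693, 6948 and 5619 in the egg arrays, 720.1, 807 and 768 in the fertilized egg arrays and 120.3, 29.2 and 343 in the zygote arrays, and was called lower for zygote minus egg (-5.81 ± 0.59, limma, adjusted p = 0.00517). RAB16B had 49.4, 16.1 and 83.6 in zygotes, against 2193, 628 and 494 in egg cells, and was also called lower (-3.94 ± 0.63, adjusted p = 0.046). Of the 8 dehydrin and LEA genes, 7 were below 0 and 1 above for zygote minus egg. Their median was -0.56, against -0.07 over all genes. The gene above 0 was Dhn1, the brightest of the list (0.10 ± 0.37). RAB21 and RAB16B were called lower and 0 genes higher, where 0.0655% of all genes were called. Of the 10 SnRK2 kinases, OsSAPK1 to OsSAPK10, 0 passed in any comparison with or without array weights, with 5 above and 5 below 0 for zygote minus egg. OsPYL11, the one ABA receptor matched, had 224, 115 and 184 in fertilized eggs, against 442, 456 and 397 in egg cells (-1.28 ± 0.52, limma, adjusted p = 0.514). It passed for this comparison with limma's default array weights (adjusted p = 0.031). Its zygote arrays had 134, 409 and 395, and zygote minus egg gave -0.59 ± 0.52 (limma, adjusted p = 0.552). Of 3 genes of ABA synthesis and breakdown (ABA1, ABA8OX1 and ABA8OX2), 0 passed.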

How the data were processed

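Labelled RNA of 9 samples was read on Affymetrix rice arrays. The intensity values deposited are linear signals from MAS5, per the submitters' processing notes, 1 for each probe set; the sources used here give no MAS5 version. Of 57381 probe sets, 123 control and 64 reporter sets were left out. The RefSeq table of assembly ASM3414082v1 gave the names. The brighter 28597 probe sets were kept, those whose mean linear signal over the 9 arrays reached the median of these means. Their signals were then taken as log2(signal + 15). Linear models over all 9 arrays used lmFit and trended eBayes of limma 3.58.1 in R 4.3.3, with Benjamini-Hochberg adjustment and a threshold of 0.05, and were checked on simulated data. Plots were drawn with matplotlib 3.10.9 and tables with pandas 2.3.3 under Python 3.11.15. Changes of dim probe sets are understated on this scale, and the number of arrays limits the precision.

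The members, lists and tests were chosen with earlier results of these data known. Genes were named if among the 5 brightest of a family, among the 3 largest differences without overlap in either direction per comparison, past the threshold with or without array weights, read by probe sets of opposite sign with 1 of them at an unadjusted p under 0.05 (OsPP2C73, with OsPP2C45 added by name), or on the clade A, ABA-linked or ER stress lists. OsPP2C13, OsPP2C34, OsPP2C35, OsPP2C64, OsPP2C71 and OsPP2C78 fall outside this rule and were chosen after their values were seen.

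The control ratio was the mean log2 signal of the poly-A control sets minus that of the hybridization control sets. When this covariate gave many calls, 6 other definitions were tried, and 1 of them was used in place of it for a time because it gave none; the first was restored for the report, and the counts of all 7 are given. Likewise 3 estimators of array weights were tried, limma's default first. Same-numbered arrays of different stages deviated from their stage means with correlations of -0.27 to 0.14, so the numbers were not taken to pair samples.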

Additional observations from a re-analysis of the deposited data

How the results depend on the processing

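Counts of members past the threshold were 0 in every comparison without weights, and stayed at 0 with offsets of 1 and 64, without the filter or with a stricter one, with quantile normalization, without the trend, with only the 6 arrays compared, and with any probe set of a gene. The replicate block gave 0 calls in each comparison too, and samples of the same number did not deviate together. Leaving out 1 array gave 0 to 4 calls for zygote minus egg, 0 to 1 in the F test and 0 for the other comparisons; the 4 came without zygote replicate 1 (OsbZIP37, OsPP2C09, OsPP2C10 and OsPP2C47), and the 1 without zygote replicate 2 (OsbZIP37, in both).

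In the order zygote minus egg, fertilized egg minus egg, zygote minus fertilized egg and F test, default array weights gave 8, 3, 1 and 9 calls, the gene-by-gene estimator 2, 3, 0 and 7, and weights estimated without the stages 1, 2, 0 and 2. The last 2 estimators were added after seeing the data. The control ratio as a covariate gave 3, 2, 1 and 4 calls (OsPP2C09, OsPP2C57, OsPP2C78 and OsbZIP37), among 761, 760, 225 and 720 probe sets. Of the 6 definitions added after this was seen, those with a mean of logs gave 3, 3, 1 and 4 over one generation of control sets (OsPP2C59 was the added gene) and 3, 2, 1 and 3 over the other, while 3 with a mean of signals and 1 with the 3′ sets alone gave 0 throughout. The calls with this covariate therefore depend on its definition, which no value here settles.

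Of 34 single-gene changes, 2 reversed over the 20 settings tallied. OsPP2C73 did so for zygote minus egg without zygote replicate 3 (-0.14, with -0.14 to 0.32 over the arrays left out). The dimmer OsPP2C45 set did so for zygote minus egg with the covariate (-0.034). The rest of the tally kept the direction, 643 on the same side of the threshold and 27 newly past it. The tally does not cover every alternative fit, and over all of them further changes reversed. Among these, OsPP2C15 reached -0.061 for fertilized egg minus egg and -0.611 for zygote minus egg. OsPP2C01 reached -0.495 for zygote minus egg. The causes were not tested.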
